A study of Homo sapiens with 6 samples.

Results

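The let-7 family is a group of miRNAs that are processed from separate hairpin precursors but carry the same seed, the stretch near the 5′ end through which a miRNA pairs with its targets. The 9 guide strands described here, the strands that are loaded into Argonaute, are hsa-let-7a-5p to hsa-let-7g-5p, hsa-let-7i-5p and hsa-miR-98-5p (the species prefix is left out further on). They were chosen by name, as 9 of the 2588 mature human miRNAs counted, and the level of each member and its share of the family were taken in every sample. Of the 2588 miRNAs, 1366 had a count in at least 1 sample and 552 had enough counts to be tested, and all 9 members were among the latter.

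The samples were Huh7 cells, an established human hepatoma line, and the miRNA sequencing asked which miRNAs differ when the circular RNA hsa_circ_0098181 is overexpressed. In the overexpression group (n = 3) the cells were transfected with a plasmid carrying hsa_circ_0098181, and in the control group (n = 3) with the control plasmid, by the same lipid reagent, and total RNA was taken 48 h later in both groups. The transfection was transient and in a single cancer cell line, and the labels do not say whether the replicates were separate cultures, so p-values measure only the spread between these samples. The level of hsa_circ_0098181 itself was not analysed here.

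let-7 guides repress mRNAs that promote growth and an embryonic cell state, among them the RAS genes, MYC, HMGA2 and the gene of the RNA-binding protein LIN28B. LIN28B in turn binds let-7 precursors and blocks their maturation, and hepatocellular carcinoma often has low let-7 and high LIN28B. Because the members share a seed they can act on the same sites, and the family is therefore considered both by its total and by its members.

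The mature sequences are shown because the members differ by so few bases that their order rests on telling them apart. They were taken from RefSeq (GRCh38.p14), in which all 9 names were matched, and are given 5′ to 3′ in the order of abundance found here, with the seed, bases 2 to 8, in capitals. All 9 fall in a single seed group.
hsa-let-7a-5p: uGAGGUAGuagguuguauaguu
hsa-let-7f-5p: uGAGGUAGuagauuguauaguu
hsa-let-7e-5p: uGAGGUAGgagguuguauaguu
hsa-let-7c-5p: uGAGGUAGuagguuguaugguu
hsa-let-7g-5p: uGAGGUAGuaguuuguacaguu
hsa-let-7i-5p: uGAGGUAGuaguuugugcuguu
hsa-let-7b-5p: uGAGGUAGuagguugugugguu
hsa-let-7d-5p: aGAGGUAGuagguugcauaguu
hsa-miR-98-5p: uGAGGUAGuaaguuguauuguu

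Every member is 22 bases long. Whether the sequencing captured different miRNAs equally well was not tested, so comparisons between miRNAs are comparisons of counts. The base was the same in all members at 14 of the 22 positions and differed at 8. Counted from 1 at the 5′ end and with let-7a-5p first, the other members carried G12A (let-7f-5p), U9G (let-7e-5p), A19G (let-7c-5p), G12U and U18C (let-7g-5p), A17G and A19G (let-7b-5p), U1A and U16C (let-7d-5p), G11A and A19U (miR-98-5p), and G12U, A17G, U18C and A19U (let-7i-5p). In 4 pairs the members differed by 1 base, which were let-7a-5p with let-7f-5p, let-7e-5p and let-7c-5p, and let-7c-5p with let-7b-5p. The largest distance was 6 bases, between let-7i-5p and let-7d-5p. How reads that matched several members were assigned is not given in the sources used here, so the counts of members that are 1 base apart are uncertain, and whether reads of one were counted for another was not tested.

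The hairpins were located in RefSeq (GRCh38.p14), at the same positions as in GENCODE release 29, from which the host genes were taken. MIRLET7A1 (chr9:94175957-94176036), MIRLET7F1 (chr9:94176347-94176433) and MIRLET7D (chr9:94178834-94178920) lie in a row on the plus strand of chromosome 9, in an intron of a long non-coding gene, with 310 and 2400 bases between them. MIRLET7A3 (chr22:46112749-46112822) and MIRLET7B (chr22:46113686-46113768) lie in exons of the non-coding host MIRLET7BHG, on the plus strand. MIR98 (chrX:53556223-53556341) and MIRLET7F2 (chrX:53557192-53557274) lie in introns of HUWE1, a ubiquitin ligase gene, on the minus strand. MIRLET7A2 (chr11:122146522-122146593), MIRLET7C (chr21:16539828-16539911) and MIRLET7E (chr19:51692786-51692864) share their hosts with hairpins of the miR-99/100 and miR-125 families and lie in introns of MIR100HG (minus strand), MIR99AHG (plus) and SPACA6 (plus). MIRLET7G (chr3:52268278-52268361) lies in an intron of WDR82 on the minus strand, and MIRLET7I (chr12:62603686-62603769) in an intron of a long non-coding gene on the plus strand, across from an exon of LINC01465. Thus let-7a-5p comes from 3 hairpins and let-7f-5p from 2, and their counts cannot be divided among them.

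Overexpression replicates 1, 2 and 3 had a depth of 7978507, 8469016 and 8289232 counts, and the control replicates, in the same order, 10786295, 8677214 and 7144798. Levels are given as CPM, counts scaled to a library total of 1000000 and corrected by edgeR's TMM factors for the composition of the library. The 4 hepatocyte markers were high in every sample, with a sum of 370830 to 471736 CPM, led by miR-122-5p at 281519 to 368155 CPM. Of the other lineages, the 5 blood cell markers summed to between 13.8 and 18.7 CPM, led by miR-142-3p, and the 3 muscle markers to at most 2.44 CPM, with 0 to 2 counts of miR-133a-3p. The neuron marker miR-124-3p (2.35 to 3.85 CPM) and the stromal marker miR-145-5p (2.31 to 4.89 CPM) were near 0 as well. In contrast, miR-128-3p, listed with the neuron markers, was at 6208 to 8023 CPM and the endothelial miR-126-3p at 2807 to 3524 CPM, while miR-9-5p (93.3 to 137 CPM), miR-143-3p (78.1 to 89.4 CPM) and miR-199a-3p (30.2 to 35.3 CPM) lay in between. On this TMM scale all overexpression samples were above all controls for miR-128-3p, miR-126-3p and miR-199a-3p. They were below all controls for miR-142-3p (9.11 to 9.86 CPM against 12.1 to 16.3 CPM), and the groups overlapped for every other marker. Without the TMM factors the groups overlapped for miR-128-3p and miR-199a-3p, whereas for miR-148a-3p and miR-143-3p all overexpression samples were then below all controls. The part of these markers in the results on let-7 was not tested.

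Control replicate 3 stood apart from the other controls. Over the 152 miRNAs with a mean of at least 100 CPM, its median absolute log2 difference was 0.21 from control replicate 1 and 0.21 from control replicate 2, against 0.049 between these 2 and 0.079 to 0.11 among the overexpression samples. Over the 9 members the same measure was 0.067 from control replicate 1 and 0.22 from control replicate 2, against 0.13 between these 2. Results are therefore also given without this sample.

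The family was led by let-7a-5p and let-7f-5p. Overexpression replicates 1, 2 and 3 had let-7a-5p at 2001, 2084 and 2254 CPM, and the control replicates, here and further on in the same order, at 2334, 2278 and 2446 CPM. For let-7f-5p the overexpression values were 2192, 2303 and 2185 CPM and the control values 2110, 2035 and 2154 CPM. All overexpression samples were below all controls for let-7a-5p and above all controls for let-7f-5p, whereas on the deposited TPM scale, which has no TMM factor, the groups overlapped for let-7f-5p. In bulk RNA, fewer cells with a miRNA and less of it per cell cannot be told apart. By their mean level these members ranked 38 and 40 among all miRNAs.

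let-7e-5p and let-7c-5p, which come from 1 hairpin each and share their host genes with miR-99 and miR-125 hairpins, formed the middle of the order. For let-7e-5p the overexpression values were 694, 631 and 713 CPM and the control values 743, 675 and 787 CPM. let-7c-5p had overexpression values of 360, 440 and 460 CPM and control values of 471, 433 and 509 CPM. The groups overlapped for both members, but not on the TPM scale, where all overexpression samples were below all controls, and the lowest let-7c-5p value was that of overexpression replicate 1.

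The other 5 members were far less abundant. let-7g-5p had overexpression values of 77.0, 74.9 and 81.1 CPM and control values of 90.3, 82.6 and 86.7 CPM, so that all overexpression samples were below all controls. let-7i-5p ranged from 54.3 to 69.4 CPM and let-7b-5p from 21.3 to 33.8 CPM, with overlapping groups. let-7d-5p, the member with a different first base, ranged from 4.36 to 7.21 CPM, and miR-98-5p from 4.47 to 6.37 CPM. These last members rested on 34 to 58 and 37 to 69 counts per sample, where the counting error alone is 14.5% and 14.7% of the mean count, whereas it is 0.723% for let-7a-5p.

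**Figure D1:**
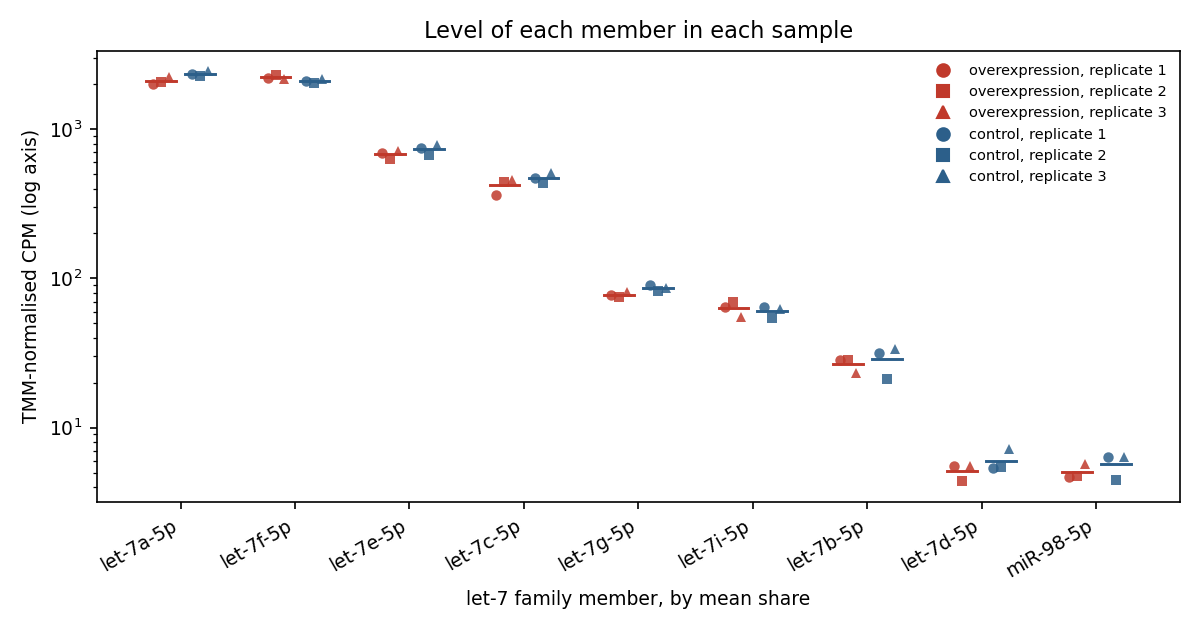
TMM-normalised CPM (log axis) of each of the 9 members in each sample, with overexpression samples in red and controls in blue, a symbol for each replicate and a line at the mean of each group (n = 3). The members span from at least 2001 CPM for let-7a-5p to below 10 CPM for let-7d-5p and miR-98-5p, while the groups lie close together for each member.

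Shares of the family, the count of a member as a percent of the counts of all 9, do not depend on the scaling of the library. Over all 6 samples let-7a-5p took 38.9% ± 1.67 (SD, n = 6) and let-7f-5p 37.8% ± 2.32, together 76.7% of the family. With let-7e-5p (12.3% ± 0.640) and let-7c-5p (7.76% ± 0.588) the first 4 members made up 96.8%. The remainder was divided among let-7g-5p (1.43% ± 0.0719), let-7i-5p (1.08% ± 0.113), let-7b-5p (0.483% ± 0.0727), let-7d-5p (0.0970% ± 0.0134) and miR-98-5p (0.0936% ± 0.0118). The mean share of the first member was 416 times that of the last. let-7d-5p, whose hairpin neighbours MIRLET7A1 and MIRLET7F1, and let-7b-5p, whose hairpin neighbours MIRLET7A3, were both below 1% of the family, but hairpins of a cluster could not be compared, since let-7a-5p and let-7f-5p are pooled over theirs.

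**Figure D2:**
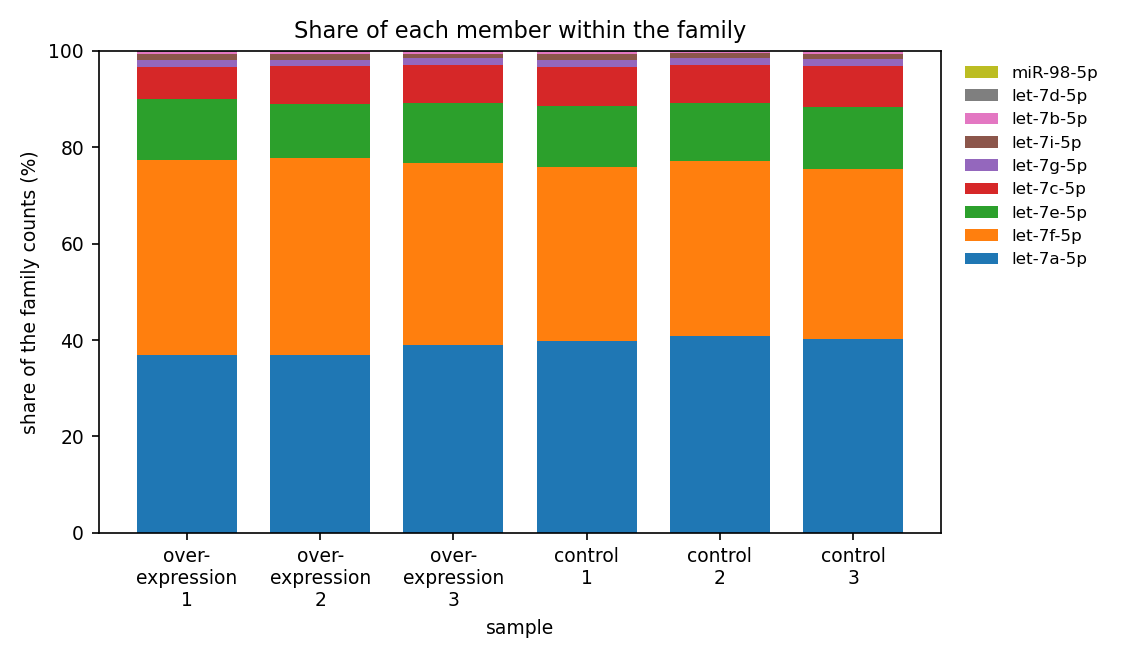
Share of the family counts (%) taken by each of the 9 members in each sample, stacked from let-7a-5p at the bottom to miR-98-5p at the top. In every sample the first 4 members fill nearly the whole bar, and the let-7f-5p segment is thinner in the controls (35.3% to 36.4%) than in the overexpression samples (37.8% to 40.8%).

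The order of the members was the same in all samples except at 2 places. Among the 8 pairs of neighbours in the order, the log2 ratio of counts kept its sign in all 6 samples for 6 pairs. The steps were 1.62 ± 0.14 (SD, n = 6, log2) from let-7f-5p to let-7e-5p, 0.67 ± 0.14 from let-7e-5p to let-7c-5p, 2.44 ± 0.13 from let-7c-5p to let-7g-5p, 0.41 ± 0.19 from let-7g-5p to let-7i-5p, 1.17 ± 0.17 from let-7i-5p to let-7b-5p and 2.31 ± 0.28 from let-7b-5p to let-7d-5p. The pair of let-7d-5p and miR-98-5p (0.050 ± 0.22) changed sign between samples, with let-7d-5p higher in 3 of 6, so these members did not differ beyond their spread. The same held for let-7a-5p and let-7f-5p over the 6 samples (0.044 ± 0.15).

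Which of these leading members came first differed between samples. Their log2 ratio, let-7a-5p over let-7f-5p, had overexpression values of -0.13, -0.14 and 0.045 and control values of 0.15, 0.16 and 0.18. let-7f-5p was thus the most abundant member in overexpression replicates 1 and 2, and let-7a-5p in overexpression replicate 3 and in all controls. The groups did not overlap, although overexpression replicate 3 lay nearer to the controls than to the other overexpression samples. The mean was -0.077 ± 0.11 (SD, n = 3) with overexpression and 0.16 ± 0.019 (n = 3) in the controls, and the log2 difference was -0.24 (two-sided exact permutation p = 0.1, the smallest that 3 against 3 samples can give). This ratio was singled out after its values were seen. Without control replicate 3 the difference was -0.23.

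**Figure D3:**
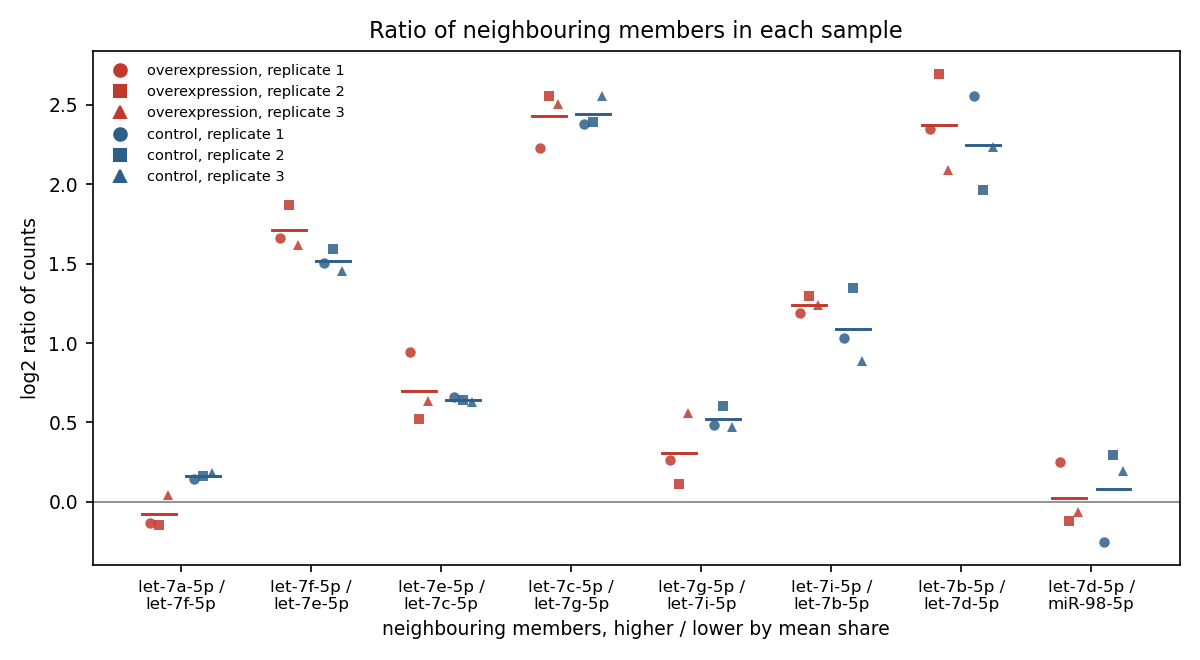
log2 ratio of the counts of neighbouring members in each sample, the member with the higher mean share over the lower one, with overexpression in red, control in blue, a symbol for each replicate and a line at the mean of each group (n = 3). Only the first and the last pair cross the line at 0, and in the first pair the overexpression samples (-0.14 to 0.045) lie below all controls (0.15 to 0.18).

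The shares rest on the same counts as the log2 ratio of let-7a-5p to let-7f-5p, so they are not a separate observation. Shares of the family also add up to the whole, so a rise in one lowers others. For let-7a-5p the overexpression shares were 36.9%, 36.9% and 39.0% and the control shares 39.9%, 40.8% and 40.1%. Those of let-7f-5p were 40.4%, 40.8% and 37.8% with overexpression and 36.0%, 36.4% and 35.3% in the controls. The difference of the means, overexpression minus control, was -2.65 percentage points for let-7a-5p and 3.74 for let-7f-5p, with no overlap in either (two-sided exact permutation p = 0.1 for each). For let-7g-5p it was -0.0975 percentage points, also without overlap (exact p = 0.1). For the other 6 members the groups overlapped and the exact p was between 0.3 and 0.7. When let-7a-5p was left out of the family, the difference became -1.49 percentage points for let-7c-5p, -1.61 for let-7e-5p and -0.261 for let-7g-5p (exact p = 0.1 for each). That of let-7f-5p was then 3.41 percentage points (exact p = 0.1). None of these tests could reach 0.05.

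Non-overlapping ratios were about as frequent in the family as elsewhere. Of the 36 pairs of members, 5 had groups that did not overlap in their log2 ratio, which compares with 13.1% of the 152076 pairs that can be formed from the 552 miRNAs tested. All 5 contained let-7f-5p, set against let-7a-5p, let-7e-5p, let-7c-5p, let-7g-5p or let-7d-5p. In each of them let-7f-5p was relatively higher in the overexpression samples.

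The comparison of the groups by edgeR's quasi-likelihood test called 0 of the 9 members at an adjusted p under 0.05, and 0% of the 552 miRNAs tested were called. At an unadjusted p under 0.05 there were 0 members, against 9.06% of all miRNAs tested (50 miRNAs). DESeq2 and limma, with either pseudocount, also called 0 members. Without control replicate 3 edgeR again called 0 members, against 9.91% of the 565 miRNAs then tested, and 1 member, let-7a-5p, had an unadjusted p under 0.05, against 21.1%. With the library size alone 3 members had an unadjusted p under 0.05, against 12.7% of all miRNAs tested. The smallest adjusted p of a member was 0.581, for let-7a-5p, with a log2 fold change of -0.15 ± 0.083 (SE) and a 95% confidence interval of -0.33 to 0.024. For let-7f-5p the log2 fold change was 0.085 ± 0.079 (interval -0.086 to 0.25, adjusted p = 0.703), and for let-7g-5p -0.16 ± 0.10 (interval -0.38 to 0.066, adjusted p = 0.617). The other members had values from -0.22 (let-7d-5p) to 0.057 (let-7i-5p), with adjusted p between 0.617 and 0.863. Without control replicate 3 let-7d-5p was at -0.094. let-7b-5p, at -0.12 with all samples, was between -0.30 (without control replicate 2) and -0.019 (without control replicate 3) when a sample was left out.

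By sign, 7 of the 9 members had a log2 fold change below 0 and 2, let-7f-5p and let-7i-5p, above 0, and with the library size alone in place of TMM all 9 were below 0. let-7i-5p was also below 0 without overexpression replicate 2 (-0.024) and without control replicate 2 (-0.022). The median over the members was -0.15, beside 0.0038 over all miRNAs tested. With the library size alone the median of all miRNAs tested shifted to -0.11 and that of the members to -0.27, so that relative to all miRNAs the members stood at -0.16 under both scalings, with 7 of 9 below the median of all. Without control replicate 3 the median of the members was -0.094. In normalised CPM, the groups did not overlap for 2 members with lower values in the overexpression group, against 6.52% of all miRNAs tested, and for 1 member with higher values, against 8.88%. In deposited TPM these counts were 4 members lower, against 16.3% of all miRNAs tested, and 0 members higher, against 1.99%.

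**Figure D4:**
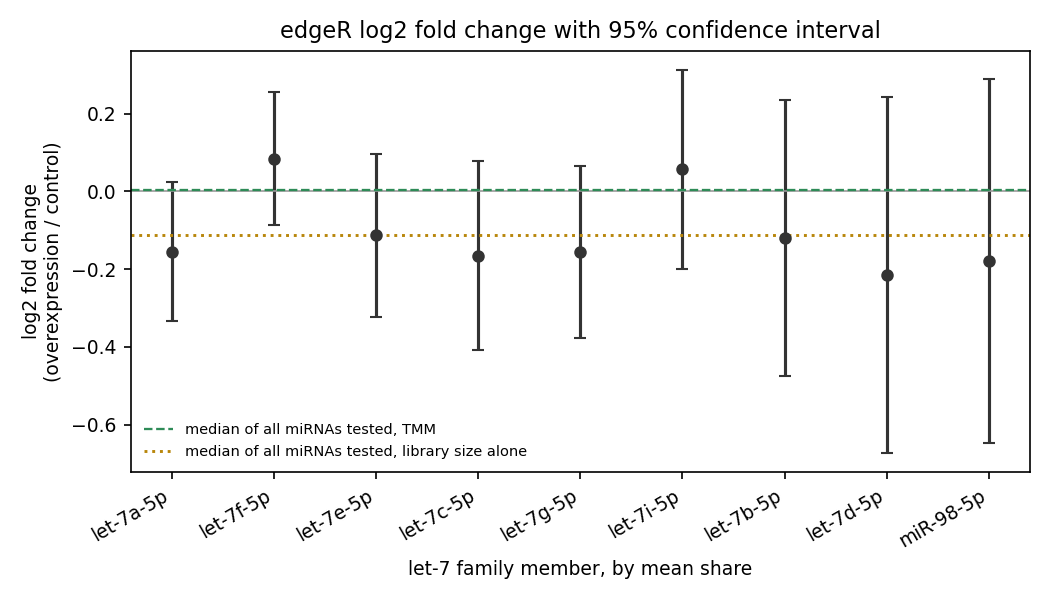
log2 fold change of each member (overexpression over control, n = 3 and 3) from edgeR with its 95% confidence interval, beside the median of all miRNAs tested with TMM (dashed, 0.0038) and with the library size alone (dotted, -0.11). All 9 intervals include 0, with 7 estimates below 0 and those of let-7f-5p and let-7i-5p above it, which with the library size alone were at -0.032 and -0.060.

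The family as a whole was a small part of the library. Its percent of all counts had overexpression values of 0.541%, 0.519% and 0.559% and control values of 0.588%, 0.577% and 0.663%, whereas miR-122-5p alone took between 30.6% and 33.9%. The overexpression samples were below all controls, and the highest value was that of control replicate 3. The difference of the means was -0.0695 percentage points, and -0.0428 without control replicate 3. On the TMM scale the overexpression sums were 5427, 5640 and 5782 CPM and the control sums 5856, 5589 and 6092 CPM, and the groups overlapped.

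The passenger strands, the opposite arms of the same hairpins, are usually degraded after loading of the guide. Of the 11 listed, let-7b-3p had 0 counts in all samples (3 counts of the total of 51345062 would be 0.0584 CPM), and 4 had enough counts to be tested. These were let-7a-3p, let-7c-3p, let-7e-3p and let-7f-2-3p, all with a log2 fold change above 0 (median 0.31) and 0 called by edgeR at an adjusted p under 0.05. With the library size alone 2 of the 4 were above 0, but this scaling also moved the median of all miRNAs tested, to -0.11. Relative to all miRNAs tested, the median of these 4 strands was then 0.31, against 0.30 under TMM. All 4 were above the median of all under both scalings. When control replicate 3 was left out, 3 were above 0, with a median of 0.19. Without a filter on low counts 10 strands could be fitted, 5 above and 5 below 0 with a median of -0.087, and the 2 with at least 10 counts in every sample had a median of 0.081. let-7c had the most passenger counts relative to its guide among the 4 leading members, 0.951% of the counts of both arms, against 0.383% for let-7a, 0.272% for let-7e and 0.0984% for let-7f, where the passengers of all hairpins of a guide were summed.

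The balance of the arms could be tested for let-7a and let-7c, which had at least 10 passenger counts in every sample. The log2 ratio of guide to passenger of let-7a had overexpression values of 8.02, 7.62 and 8.09 and control values of 7.76, 8.18 and 8.65. That of let-7c had overexpression values of 6.51, 6.52 and 6.62 and control values of 7.21, 6.38 and 6.80. The groups overlapped for both, with a difference of -0.29 for let-7a and -0.25 for let-7c (two-sided exact permutation p = 0.4 for each). Leaving out 1 sample moved both, to -0.062 for let-7a without control replicate 3 and to -0.044 for let-7c without control replicate 1. let-7e, with 9 to 25 passenger counts, and let-7f, with 8 to 28, were below the limit and not tested. The ratio of let-7e had overexpression values of 8.57, 8.06 and 7.81 and control values of 8.69, 9.31 and 8.72, all overexpression samples below all controls (difference -0.76), but the counting error of let-7e-3p was 24.6% of its mean count. For let-7f the groups overlapped, with a difference of -0.40, and of -0.053 without control replicate 3.

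Apart from miR-4763, the partners in the same clusters belong to the miR-99/100 and miR-125 families, which have seeds of their own. Of these, miR-99a-5p, near let-7c, and miR-99b-5p and miR-125a-5p, near let-7e, were more abundant than these guides. miR-125a-5p was at 5114 to 6610 CPM, miR-99b-5p at 1341 to 1805 CPM and miR-99a-5p at 1110 to 1423 CPM, whereas miR-100-5p, near MIRLET7A2, was at 166 to 218 CPM. miR-125b-5p, at 6931 to 8810 CPM, comes from 2 hairpins, MIR125B1 in the host of MIRLET7A2 and MIR125B2 in that of MIRLET7C, and its counts cannot be divided between them. Of the 13 partner strands listed, 11 were tested and 0 were called by edgeR at an adjusted p under 0.05, with 4 at an unadjusted p under 0.05, against 9.06% of all miRNAs tested, and 7 without control replicate 3, against 21.1%. Without overexpression replicate 2 there were 0, against 4.83%. The log2 fold change of the partners was above 0 for 8 and below 0 for 3, with a median of 0.13, beside 281 above and 271 below and a median of 0.0038 over all. With the library size alone 6 of the partners were above 0 and their median was 0.017, beside -0.11 over all, so that relative to all miRNAs it was 0.13 under both scalings. With TMM the median of the partners was 0.043 without overexpression replicate 2. Both strands of miR-4763, whose hairpin lies between MIRLET7A3 and MIRLET7B, had 0 counts in every sample.

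Other miRNAs with this seed added almost nothing to the family. Besides the 9 members, RefSeq holds miR-4458 and miR-4500 with the same bases 2 to 8, and miR-4458 had 4 counts in all samples together and miR-4500 had 0. miR-202-3p, whose seed differs from that of let-7, also had 0 counts.

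The miRNAs whose levels were most like the family sum across the 6 samples were miR-23b-3p (Pearson's r = 0.914), miR-23a-3p (0.853), miR-196a-5p (0.771), miR-1248 (0.695) and miR-532-3p (0.681), among the 148 non-members with a mean of at least 100 CPM. miR-23b-3p, the closest, had overexpression values of 922, 931 and 998 CPM and control values of 974, 958 and 1096 CPM, with its highest value in control replicate 3, as for the family sum. Among the members, each of which is part of the sum, r was 0.941 for let-7c-5p, 0.881 for let-7a-5p, 0.880 for miR-98-5p, 0.756 for let-7e-5p, 0.714 for let-7g-5p, 0.603 for let-7d-5p, 0.529 for let-7b-5p, 0.0028 for let-7i-5p and -0.109 for let-7f-5p. These coefficients describe 6 samples that share their library scaling.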

How the data were processed

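Total RNA of Huh7 cells was sequenced for miRNAs. The authors deposited counts per mature miRNA, and TPM values that equal the counts scaled to a common total (CPM) within 0.00303. The submitters' processing notes name TopHat2 2.0.9, Bowtie and hg38. Trimming, the miRNA annotation, mismatches and multiple matches are not given in the sources used here. Counts were fitted over the whole table with edgeR 4.0.16 in R 4.3.3 (filterByExpr with a minimum count of 10 and a minimum total of 15, TMM, quasi-likelihood test, two-sided, Benjamini-Hochberg adjustment), after the fit was tested on simulated data. DESeq2 1.42.0, limma 3.58.1, other scalings and filters, and leaving out samples were alternatives. Added counts in arm ratios were 0.5. The miRNAs named were the members, passenger strands, cluster partners, let-7-like seeds, lineage markers, the most abundant miRNA and the 5 most like the family sum. The members and lists were chosen with earlier results of these data known. Limits on 0 counts cover counting error only.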

Additional observations from a re-analysis of the deposited data

How the results depend on the processing

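No let-7 member had an adjusted p under 0.05 in any of the 16 fits, in which the smallest adjusted p of a member was between 0.209 and 0.865, and at most 3 members had an unadjusted p under 0.05, these with the library size alone, where 12.7% of all miRNAs tested did. The number of all miRNAs called, 0, became 3 with the library size alone, 6 without a filter and from 0 to 56 when a sample was left out, with 56 without control replicate 3. The median log2 fold change of the members, -0.15, was -0.27 with the library size alone, -0.23 with a library size that left out miR-122-5p, the most abundant miRNA, and between -0.19 and -0.094 when a sample was left out, the latter without control replicate 3. With the library size alone let-7f-5p changed sign to -0.032 and let-7i-5p to -0.060, and leaving miR-122-5p out of the library size put let-7i-5p at -0.023. These scalings moved the median of all miRNAs tested to -0.11 and -0.075, and relative to it let-7f-5p (0.079 and 0.080, main 0.081) and let-7i-5p (0.052 in both, main 0.053) stayed above 0. When a sample was left out let-7i-5p was between -0.024 and 0.15, below 0 without overexpression replicate 2 and without control replicate 2. In the same fits let-7d-5p (main -0.22) was between -0.31 and -0.094, let-7b-5p (-0.12) between -0.30 and -0.019 and miR-98-5p (-0.18) between -0.33 and -0.093. let-7c-5p (-0.16) was between -0.23 and -0.071 and let-7e-5p (-0.11) between -0.18 and -0.067. The difference in the log2 ratio of guide to passenger was between -0.50 and -0.062 for let-7a, -0.46 and -0.044 for let-7c, -0.98 and -0.56 for let-7e, and -0.69 and -0.053 for let-7f. The difference in the family's percent of all counts moved from -0.0695 to -0.0230 with the TMM-scaled library size. The share difference of let-7b-5p, -0.0172, was between -0.0721 and 0.0183 when a sample was left out. That of let-7e-5p (main -0.457) was between -0.80 and -0.00241 and that of let-7c-5p (-0.583) between -0.82 and -0.170. For let-7d-5p (-0.0111) the range was -0.0167 to -0.00325, for miR-98-5p (-0.00767) -0.0164 to -0.00199 and for let-7i-5p (0.0888) 0.0346 to 0.173. Why single samples moved these values was not tested. The log2 ratio of let-7a-5p to let-7f-5p, chosen after seeing the data, differed by -0.30 to -0.21 when a sample was left out. The labels share replicate numbers, but deviations of same-numbered samples correlated at -0.025, 0.15 and 0.24 over 152 miRNAs. With the replicate block 0 miRNAs and 0 members were called and the median of the members was -0.16, and differences of means cannot move under it. Depth limits let-7d-5p and miR-98-5p most, with 34 and 37 counts in their lowest samples.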

Other observations

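let-7c and let-7e are each made from a single hairpin that shares its host gene with a miR-99 hairpin, and MIRLET7E also with MIR125A, so a guide can be set against its neighbours without any scaling. These pairs were chosen after the values of the guides and partners had been seen, and the other strands of the partner hairpins were not used. Of these strands, miR-125a-3p had a log2 fold change of -0.30, against -0.11 for let-7e-5p, with all overexpression samples below all controls. The values of miR-99a-3p (0.13) and miR-99b-3p (0.081) were above 0. The log2 ratio of let-7c-5p to miR-99a-5p had overexpression values of -1.83, -1.69 and -1.51 and control values of -1.24, -1.49 and -1.17 (replicates 1, 2 and 3), so that all overexpression samples were below all controls, but the nearest samples of the groups were 0.018 apart, less than the counting error of the ratio (0.027). The mean was -1.68 ± 0.16 (SD, n = 3) against -1.30 ± 0.17 (n = 3).

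The log2 ratio of let-7e-5p to miR-99b-5p had overexpression values of -1.25, -1.49 and -1.34 and control values of -0.85, -1.18 and -1.19, and that to miR-125a-5p overexpression values of -3.04, -3.34 and -3.21 and control values of -2.83, -2.92 and -3.04. The mean log2 ratio to miR-99b-5p was -1.36 ± 0.12 (SD, n = 3) with overexpression and -1.07 ± 0.19 (n = 3) in the controls, and that to miR-125a-5p -3.20 ± 0.15 and -2.93 ± 0.10. The groups were 0.060 apart at their nearest samples for miR-99b-5p and 0.0053 apart for miR-125a-5p, where the counting error was 0.022 and 0.020. Both gaps were smaller than the SD between samples of a group, and that for miR-125a-5p was also smaller than the counting error. The differences, overexpression minus control, were -0.38 for let-7c-5p to miR-99a-5p, -0.28 for let-7e-5p to miR-99b-5p and -0.27 for let-7e-5p to miR-125a-5p, and when a sample was left out between -0.47 and -0.30, -0.34 and -0.17, and -0.35 and -0.20. Over all pairs of miRNAs tested, 13.1% did not overlap.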
